A study of Mus musculus with 16 samples.

Results

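The insulin receptor signalling core was followed across muscle and fat through 10 genes: Insr, Irs1, Irs2, Pik3r1, Pik3ca, Akt1, Akt2, Tbc1d1, Tbc1d4 and Grb10. They were taken by symbol, through their Ensembl identifiers in the GENCODE M21 annotation, from the 55536 genes of the deposited count table, and all 10 were found and passed the filter on low counts in every comparison. The 8 mice were female, and RNA was taken from visceral fat and from the red part of the gastrocnemius, a muscle of the calf. There were 4 mice of the genotype Cre-Control (numbered 131, 137, 138 and 11) and 4 of the genotype Conditional MusMyD88-/- (139, 958, 960 and 29), in which Myd88 was to be deleted in muscle, so that the tissues and genotypes form 4 groups of 4 libraries. All mice, controls included, had 5 weeks of access to wheel running and then 8 days of restricted movement in a small mouse cage. By its title, the series concerns protection of females from fat gain during inactivity. The promoter that drives Cre, the ages of the mice and any mouse without this regimen were not among the sources used here. Libraries with the same mouse number were taken as the muscle and fat of 1 animal.

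Insulin binds a receptor tyrosine kinase that phosphorylates the adaptors IRS1 and IRS2. These recruit PI3-kinase, whose lipid product brings the kinases AKT1 and AKT2 to the membrane. AKT phosphorylates TBC1D1 and TBC1D4, proteins that hold Rab GTPases inactive, and this releases vesicles that carry the glucose transporter GLUT4 to the cell surface. Skeletal muscle and fat are the main tissues in which insulin drives glucose uptake by this route. TBC1D1 is also known as a target of AMP-activated kinase during contraction.

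The 16 libraries held 13242243 to 21747345 counts. Myd88 was at 3.22, 3.05, 5.06 and 4.37 CPM (counts scaled to library size and by the TMM method) in control muscle and at 3.19, 2.96, 2.43 and 2.85 CPM in knockout muscle. These groups overlap, and the edgeR quasi-likelihood test gave a log2 fold change of -0.47 (SE 0.20, adjusted p = 0.949). In fat Myd88 was at 9.94 to 12.1 CPM among controls and 9.88 to 11.7 CPM among knockouts. The labels of tissue matched 6 muscle fibre genes, whose summed level was 67790 to 88510 CPM in muscle compared with 155.7 to 1311 CPM in fat, and 6 adipocyte genes, at 216 to 418 CPM in muscle and 13200.0 to 15920.0 CPM in 7 of the 8 fat libraries. The exception was control mouse 138, whose fat had 2654 CPM of the adipocyte genes. It also held 8998 CPM of 5 smooth muscle genes, against 163 to 472 CPM in the other fat, and 292 CPM of Upk1a, a gene of bladder epithelium, where the other fat had 0.0457 to 1.71 CPM. For several values that it moves, the value without it is given too. Mean levels per length in fat and tissue values of the other pathway genes include it. Smaller shares of a cell type and less RNA per cell cannot be told apart in these whole-tissue libraries. Muscle of control mice 131 and 11 held 2.80 and 1.98% of its counts in a ribosomal RNA gene, which took at most 0.00556% in the other libraries.

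Of the 10 genes Tbc1d1 differed most between tissues. It and Tbc1d4 encode related Rab GTPase-activating proteins. Tbc1d1 lies on chr5:64156305-64351486 (plus strand) and Tbc1d4 on chr14:101442360-101609191 (minus strand) of GRCm38. The stretches that end just before a RefSeq start of each are shown because these genes carry the largest shift in partner use found below. They come from RefSeq's GRCm38.p6 promoters, in which 9 of the 10 genes were matched. Each has 250 bases, from chr5:64160010-64160259 (plus strand) and chr14:101609192-101609441 (minus strand), and that of Tbc1d1 lies inside the GENCODE gene, past its outermost start. Capitals mark a match to CAGCTG, a sequence read by muscle transcription factors of the MyoD family.
Tbc1d1: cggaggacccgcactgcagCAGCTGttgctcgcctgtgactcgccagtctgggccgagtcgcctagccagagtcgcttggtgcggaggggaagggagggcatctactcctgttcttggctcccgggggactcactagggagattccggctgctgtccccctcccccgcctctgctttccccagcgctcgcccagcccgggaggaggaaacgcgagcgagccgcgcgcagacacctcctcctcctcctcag
Tbc1d4: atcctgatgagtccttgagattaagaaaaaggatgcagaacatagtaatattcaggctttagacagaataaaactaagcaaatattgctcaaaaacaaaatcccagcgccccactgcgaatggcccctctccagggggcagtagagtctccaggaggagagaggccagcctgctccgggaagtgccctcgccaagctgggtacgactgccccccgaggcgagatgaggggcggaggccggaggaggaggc
The Tbc1d1 stretch had 1 match to CAGCTG and the Tbc1d4 stretch had 0. On either strand, 0 matches to AGGTCA, the nuclear receptor site, or to the MEF2 consensus were found in these stretches, so no motifs overlapped. Among 32851 promoter stretches of the same length, 13% held CAGCTG, 14% AGGTCA and 2.92% the MEF2 consensus. GC content was 68.4% for Tbc1d1 and 54.8% for Tbc1d4. A second RefSeq start of Tbc1d1, with the stretch chr5:64230107-64230356, held 0 matches. The counts are per gene and do not say which start was used, and a match is a description of the sequence.

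**Figure D1:**
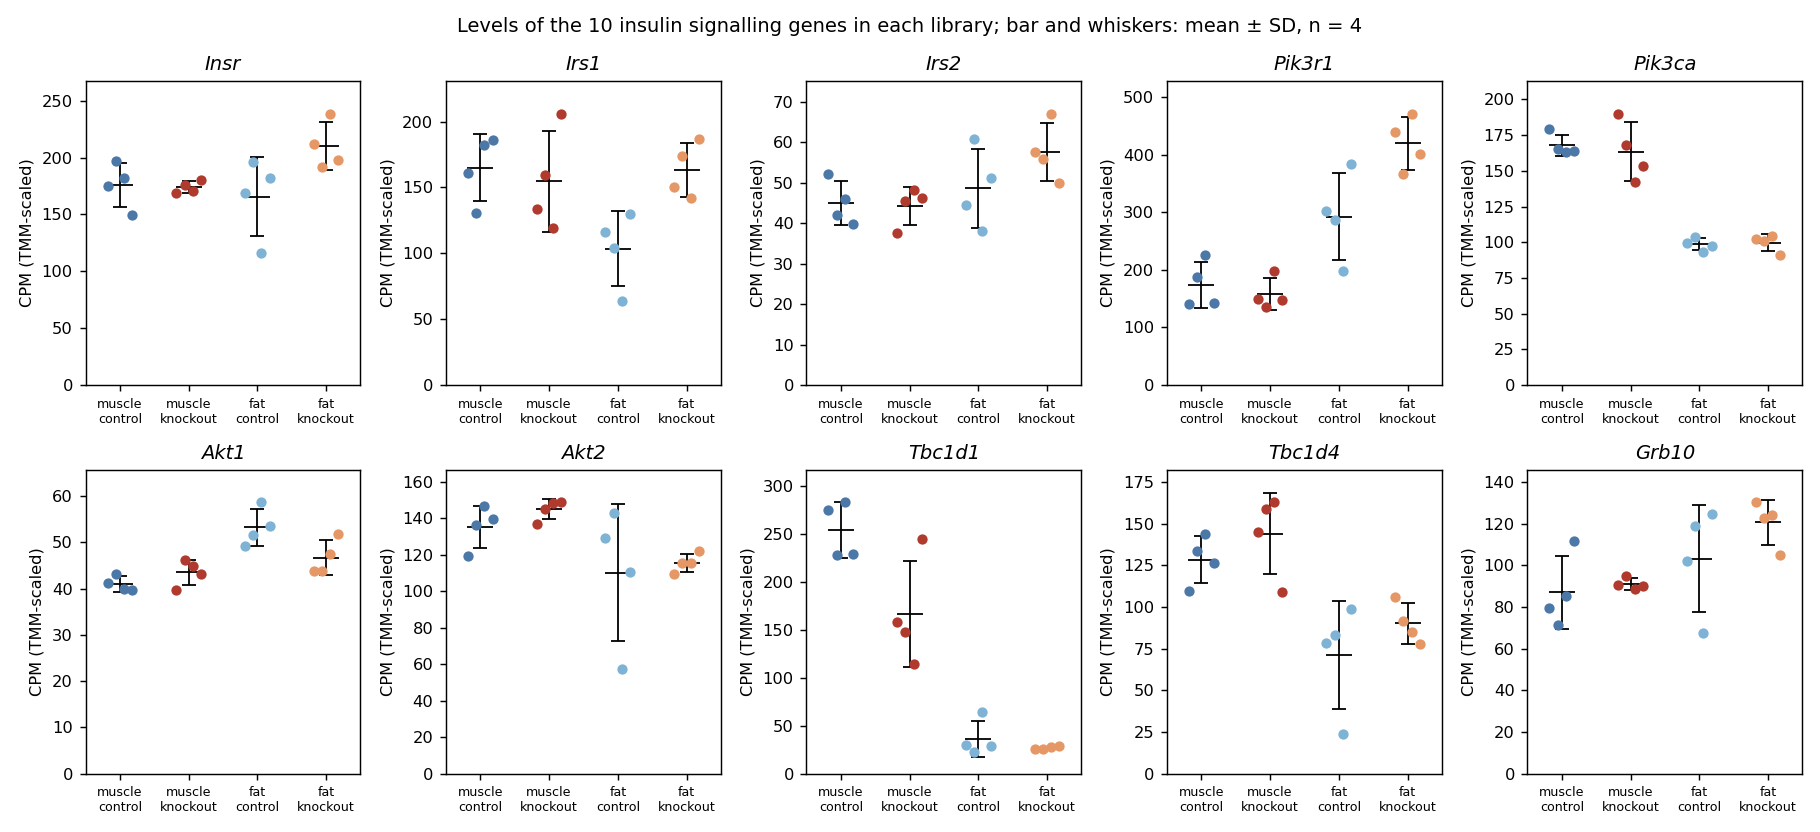
Level of each gene in every library, in TMM-scaled CPM on axes that start at 0, with points for mice and bars and whiskers for the mean and SD of 4 mice. Tbc1d1 sits at 115 to 283 CPM in muscle compared with 23.0 to 64.5 CPM in fat, and Pik3r1 has the highest mean in fat.

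Levels of the 10 genes were compared per length of merged exons. In muscle the mean level ran from 28.3 ± 8.40 RPKM for Tbc1d1 to 7.07 ± 0.75 RPKM for Irs2 (SD, n = 8). Akt2 (19.7 RPKM), Pik3ca (18.2), Tbc1d4 (17.7), Irs1 (17.5) and Pik3r1 (16.5 RPKM) came between them with ranges that overlap, so their order is not set by these libraries. Insr, at 12.7 ± 0.97 RPKM, lay below Pik3r1 in 8 of 8 muscle libraries, and Akt1 (10.3 RPKM) lay below Insr in 8 of 8. Akt1 and Grb10 (9.79 RPKM) overlapped. In fat the order changed at its ends. Pik3r1 was highest, at 35.3 ± 8.88 RPKM, above Akt2 (15.8 RPKM) in 8 of 8 libraries. Tbc1d1 had the lowest mean, at 4.26 ± 1.82 RPKM, and lay below Irs2 in 7 of 8. In the fat of mouse 138 Tbc1d1 was at 8.71 RPKM and Irs2 at 6.02 RPKM. Irs1 (14.6 RPKM), Insr (13.7), Grb10 (12.3), Akt1 (12.2), Pik3ca (10.9) and Tbc1d4 (10.5 RPKM) lay close together, with neighbours in the order overlapping. With the length of the longest coding transcript in place of merged exons, Tbc1d1 and Irs2 remained at the ends in muscle, and Pik3r1 and Tbc1d1 in fat, while the order between the ends changed.

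The comparison of muscle with fat called 7 of the 10 genes, 5 higher in muscle and 2 higher in fat. This is close to the rate over all genes: 79.6% of 17084 were called, 35.7% higher in muscle and 44.0% higher in fat. The median log2 fold change of all genes was -0.16 under TMM scaling and -1.36 with total counts alone, where the share of called genes that were higher in muscle was 12.2% in place of 44.8%. With total counts Irs1, Pik3ca, Akt2 and Tbc1d4 have negative values, so these directions hold relative to the other genes. Relative to the median of all genes the 10 values moved by under 0.05 between scalings, and Tbc1d1 stood at 2.94 under TMM and 2.90 with total counts.

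The receptor gene Insr, which encodes the insulin receptor (chr8:3122061-3279617), was at nearly the same level in the tissues. It was at 149.8 to 197 CPM in muscle (median 176) compared with 116 to 239 CPM in fat (median 194). Muscle exceeded fat in 3 of 8 mice. The log2 fold change, muscle over fat, was -0.018 (SE 0.096, 95% interval -0.21 to 0.17, edgeR adjusted p = 0.864). With total counts alone it was -1.21, above the median of all genes on that scale.

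The adaptors differed from each other. Irs1 (chr1:82233101-82291416), the main adaptor of muscle, was at 119.5 to 206 CPM in muscle (median 160.3) compared with 63.8 to 187 CPM in fat (median 136). The tissues overlap, and muscle exceeded fat in 5 of 8 mice. Among controls the mean was 165.0 CPM in muscle and 103.5 CPM in fat (116.7 CPM without mouse 138). Among knockouts it was 154.6 CPM in muscle and 163.3 CPM in fat, so the direction of the pooled value is that of the controls. Its log2 fold change was 0.37 (SE 0.14, edgeR adjusted p = 0.0256). The call was lost without mouse 138 (adjusted p = 0.0522), 958 (0.0506) or 29 (0.0558) and with no filter on low counts (0.0933). Irs2 (chr8:10984681-11008458), its partner, was at 37.5 to 52.3 CPM in muscle compared with 38.1 to 67.1 CPM in fat. It was not called (log2 fold change -0.17, SE 0.10, edgeR adjusted p = 0.12), though without the fat library of mouse 138 it was (-0.22, adjusted p = 0.0264), as with no filter on low counts (0.0428) and with total counts.

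PI3-kinase is a dimer, and of the genes of its chains Pik3r1 and Pik3ca went opposite ways. Pik3cb, which encodes another catalytic chain, was higher in fat, as was Pik3r1. Its log2 fold change, muscle over fat, was -1.72 (SE 0.165, edgeR adjusted p = 1.12e-07). Pik3r1 (chr13:101680563-101768217), which encodes the regulatory chain p85 alpha, was at 135 to 225 CPM in muscle (median 149) compared with 198 to 471 CPM in fat (median 374). The ranges overlap through the fat of mouse 138, the lowest fat library, and fat exceeded muscle in 7 of 8 mice. It was 2.01-fold higher in fat (log2 fold change, muscle over fat, -1.0, SE 0.14, edgeR adjusted p = 6.67e-06). Without the fat library of mouse 138 the log2 fold change of Pik3r1 was -1.075 (edgeR adjusted p = 2.04e-07). Pik3ca (chr3:32397671-32468486), which encodes the catalytic chain p110 alpha, was at 142 to 190.1 CPM in muscle compared with 91.2 to 104 CPM in fat. Every muscle library lay above every fat library, which was so for 52.3% of all genes in 1 direction or the other. It was 1.76-fold higher in muscle (log2 fold change 0.81, SE 0.06, edgeR adjusted p = 1.04e-08).

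Akt2 and Akt1 encode the kinases that PI3-kinase recruits, and AKT2 is the form most tied to glucose uptake. Akt2 (chr7:27591552-27640826) was at 119, 136, 147 and 139.5 CPM in control muscle and 137, 145, 149 and 149 CPM in knockout muscle. In fat it was at 129, 143, 57.6 and 111 CPM among controls and 109.7, 115, 115 and 122 CPM among knockouts. The fat of mouse 138 was the low library, and fat exceeded muscle in 2 of 8 mice. The log2 fold change was 0.39 (SE 0.13, edgeR adjusted p = 0.0133), and 0.28 without the fat library of mouse 138 (adjusted p = 0.000287). The call was lost with no filter on low counts (0.31, adjusted p = 0.0527). Akt1 (chr12:112653821-112674884) was at 39.6 to 46.1 CPM in muscle compared with 43.8 to 58.6 CPM in fat. It was called slightly higher in fat (log2 fold change, muscle over fat, -0.17, SE 0.06, edgeR adjusted p = 0.0134), 0.010 below the median of all genes, and the call was lost without mouse 131 (0.0925) or 29 (0.0502).

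Tbc1d1 had the largest difference of the 10. It was at 275, 228, 283 and 229 CPM in control muscle and 158, 147, 115 and 244 CPM in knockout muscle. In fat it was at 29.5, 23.0, 64.5 and 28.4 CPM among controls and 25.5, 25.5, 27.5 and 28.6 CPM among knockouts. The high fat library was mouse 138, and even that lay below all muscle. Tbc1d1 was 6.9-fold higher in muscle (log2 fold change 2.79, SE 0.21, edgeR adjusted p = 7.25e-09), and its log2 fold change was 3.01 without the fat of mouse 138. Tbc1d4, the form also called AS160, was at 109.9, 134, 144 and 126 CPM in control muscle and 145, 159, 163 and 109 CPM in knockout muscle. In fat it was at 78.5, 83.3, 24.0 and 98.9 CPM among controls and 106, 91.8, 85.0 and 77.7 CPM among knockouts. All muscle libraries lay above all fat libraries, and the lowest fat library was again mouse 138. With Pik3ca and Tbc1d1, this made 3 of the 10 genes whose tissues did not overlap, beside 52.3% of all genes. It was 1.79-fold higher in muscle (log2 fold change 0.84, SE 0.21, edgeR adjusted p = 0.00162), and 0.70 on the log2 scale without that library.

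Grb10 (chr11:11930508-12038683) encodes an adaptor that binds the insulin receptor and restrains it, and is expressed from 1 parental copy in many tissues. It was at 71.2 to 112 CPM in muscle compared with 67.4 to 130.2 CPM in fat, and fat exceeded muscle in 7 of 8 mice. It was not called (log2 fold change, muscle over fat, -0.25, SE 0.11, edgeR adjusted p = 0.0557). Without the fat library of mouse 138 it was called higher in fat (-0.33, adjusted p = 0.00117), as it was without mouse 11 (0.0329), with no filter on low counts (0.0212) and with total counts. Mouse as a replicate block left 7 of the 10 genes called.

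**Figure D2:**
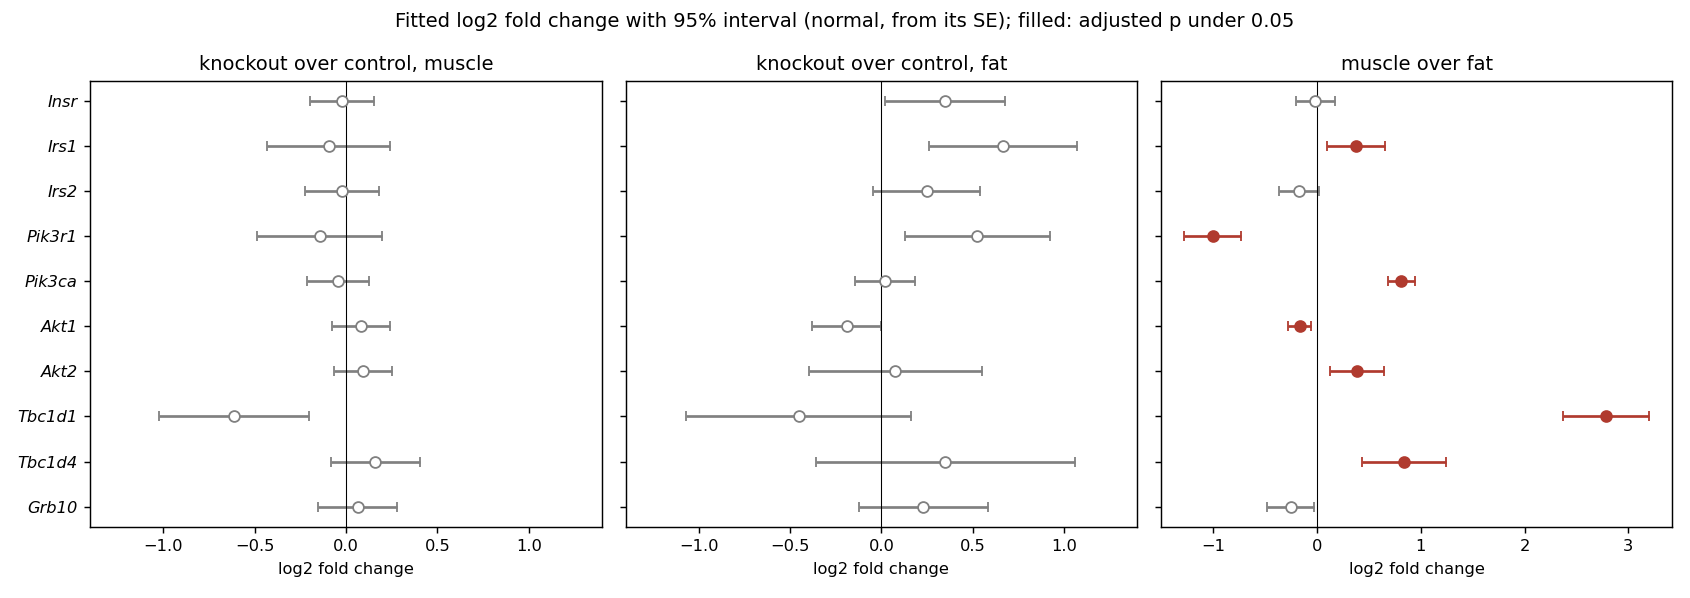
Fitted log2 fold change of each gene with its normal 95% interval, for knockout over control in muscle and in fat and for muscle over fat. Filled points mark an adjusted p under 0.05. The intervals are narrower than the F test would give, so one that excludes 0 is not a call. Of the 10 genes, 0 are filled for genotype in either tissue and 7 for tissue, with Tbc1d1 farthest out at 2.79.

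The balance between partners was compared as a ratio per kilobase within each library, which does not depend on scaling between libraries. All 4 ratios differed between tissues in two-sided exact permutation tests of 8 against 8 libraries, with p adjusted over 12 tests. Irs1 exceeded Irs2 in every library, 2.44-fold in muscle and 1.68-fold in fat (difference of log2 ratios 0.54, exact permutation p = 0.0103, adjusted p = 0.0308). The adjusted p of this ratio rose above the threshold without mouse 131, 137, 138, 11 or 139, to 0.11 at most, and was 0.0587 without the fat library of mouse 138 alone. Akt2 over Akt1 was 1.66 to 2.11 in muscle and 0.564 to 1.6 in fat, and the tissues did not overlap. The difference was 0.59 on the log2 scale (exact permutation p = 0.000155, the smallest the assignments can give, adjusted p = 0.000932). The ratio of 0.564 was that of mouse 138, and the other fat libraries were at 1.19 to 1.6. When leaving out a mouse or library the log2 difference ranged from 0.40 to 0.65.

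Tbc1d1 over Tbc1d4 was 2.59, 1.77, 2.04 and 1.87 in control muscle and 1.13, 0.962, 0.731 and 2.32 in knockout muscle. In fat it was 0.389, 0.287, 2.78 and 0.298 in controls and 0.249, 0.288, 0.335 and 0.382 in knockouts. The fat of mouse 138 had a ratio above all muscle libraries, and the other 7 fat libraries lay below all of them. The ratio was 3.74-fold higher in muscle (log2 difference 1.90, exact permutation p = 0.00295, adjusted p = 0.0118). Without the fat library of mouse 138 the log2 difference was 2.29.

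Pik3r1 over Pik3ca was 0.706, 1.02, 1.25 and 0.785 in control muscle and 0.710, 0.724, 1.26 and 0.873 in knockout muscle. In fat it was 2.73, 2.49, 1.91 and 3.54 in controls and 3.88, 3.26, 4.08 and 3.96 in knockouts. The tissues did not overlap, and the regulatory chain's transcript was in excess of the catalytic chain's in all fat libraries but in 3 of the 8 muscle libraries. That count depends on the length used, and with the longest coding transcript it was 6 of 8, with a mean ratio of 1.27 in place of 0.915. The ratio was 3.52-fold higher in fat (log2 difference, muscle over fat, -1.82, exact permutation p = 0.000155, adjusted p = 0.000932). With sign flips within mouse, a paired test of 256 assignments, the exact p values were 0.00781 for Irs1/Irs2, Akt2/Akt1 and Pik3r1/Pik3ca and 0.0156 for Tbc1d1/Tbc1d4. Other isoforms of the p85 and p110 chains are left out of this ratio.

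**Figure D3:**
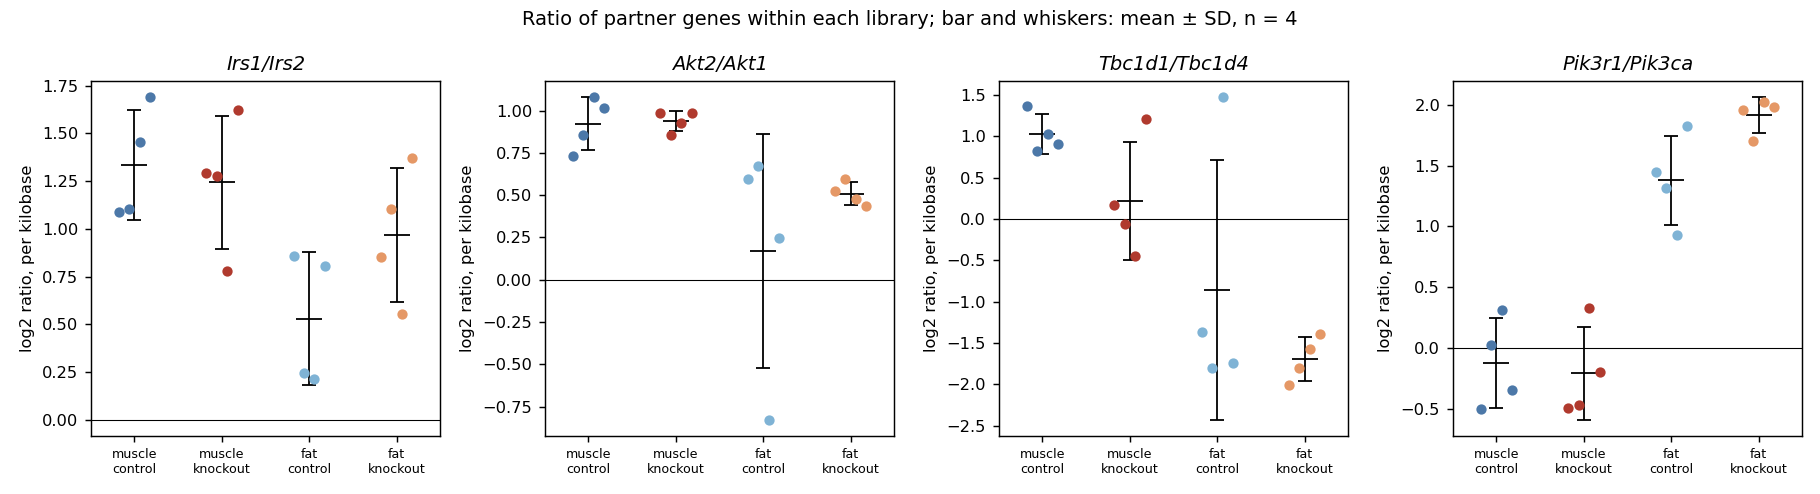
Log2 ratio of partner genes per kilobase in each library, with points for mice and the mean and SD of each group of 4. The Pik3r1/Pik3ca panel separates the tissues fully, and in the Tbc1d1/Tbc1d4 panel the fat library of control mouse 138 sits at 1.475 while the other fat controls are at -1.801 to -1.361.

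Muscle labelled knockout showed no called difference from control muscle in these genes. In edgeR 0 of 10 were called, against 0.0141% of 14183 genes, and 1 had an unadjusted p under 0.05, as had 5.04% of all genes. DESeq2 and limma voom also called 0 of 10. The median log2 fold change, knockout over control, was -0.022, beside 0.0028 over all genes, and 4 of 10 were positive, beside 50.8% of all genes. Of all genes, 3.17% had groups that do not overlap, and of these 10 it was 0. Insr was at 149.8 to 197 CPM among controls and 169 to 180.0 CPM among knockouts (log2 fold change -0.023, 95% interval -0.20 to 0.15). Akt2 was at 135.5 ± 11.6 and 144.9 ± 5.49 CPM (SD, n = 4; log2 fold change 0.093, 95% interval -0.066 to 0.25), Irs1 at 165 ± 25.4 and 154.6 ± 38.1 CPM, and Pik3r1 at 174 ± 40.5 and 158 ± 27.7 CPM. For the 9 genes other than Tbc1d1 the fitted values lay between -0.145 and 0.16.

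Tbc1d1 was the exception in size. The controls were at 228 to 283 CPM, 3 of the 4 knockouts at 115 to 158 CPM, and knockout mouse 29 at 244 CPM, within the controls. The log2 fold change was -0.62 (SE 0.21), and the edgeR adjusted p was 0.923. Without mouse 29 it was -0.86, with an adjusted p of 0.00954. Of the 8 fits that left out 1 muscle library, this was the one that called Tbc1d1. Mouse 29 was singled out after its values were seen, and leaving out the knockout nearest the controls favours a small p by construction. Tbc1d4 had a value of the opposite sign, with the same mouse apart. It was at 145, 159 and 163 CPM in 3 knockouts and 109 CPM in mouse 29, beside 109.9 to 144 CPM among controls (log2 fold change 0.16, SE 0.12, edgeR adjusted p = 0.949). The Tbc1d1/Tbc1d4 ratio was 2.05 in controls and 1.16 in knockouts as a geometric mean (log2 difference -0.81, two-sided exact permutation p = 0.114, adjusted p = 0.229), and 4 against 4 cannot give a p below 0.0286. Without mouse 29 the log2 difference was -1.15 (exact permutation p = 0.0286, the smallest that 4 against 3 can give, adjusted p = 0.0686). The ratios Irs1/Irs2, Akt2/Akt1 and Pik3r1/Pik3ca differed by -0.092, 0.018 and -0.080 on the log2 scale (exact permutation p = 0.743, 0.914 and 0.83).

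Genes of muscle fibre type are given beside these values. Myh7, the slow myosin heavy chain, was at 1558 to 1912 CPM among controls. Knockouts 139, 958 and 960 had 3004, 3089 and 3080.0 CPM, and knockout 29 had 1372 CPM. Myh2, the myosin of oxidative fast fibres, was at 3390.0, 6420.0, 5193 and 5043 CPM among controls and 4764, 5871, 8943 and 4639 CPM among knockouts. The 3 knockouts low in Tbc1d1 were high in Myh7, and mouse 29 lay within the controls for Tbc1d1 and below them for Myh7. Macrophage genes, 5 of 5 detected, summed to 43.5 to 63.6 CPM in control and 65.7 to 90.9 CPM in knockout muscle. These sums did not overlap between the groups, while those of every other cell type list overlapped. Of single genes 3.17% did not overlap, but that is not the rate for sums of genes, which was not computed. Fibroblast genes summed to 141 to 235 CPM in control and 198 to 291 CPM in knockout muscle. The part of fibre type or of other cells in the Tbc1d1 values was not tested. Without control mice 131 and 11, the libraries with ribosomal RNA, Tbc1d1 had a log2 fold change of -0.64, and Pik3r1 went from -0.14 to -0.40, with an edgeR adjusted p of 1.0 for each.

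**Figure D4:**
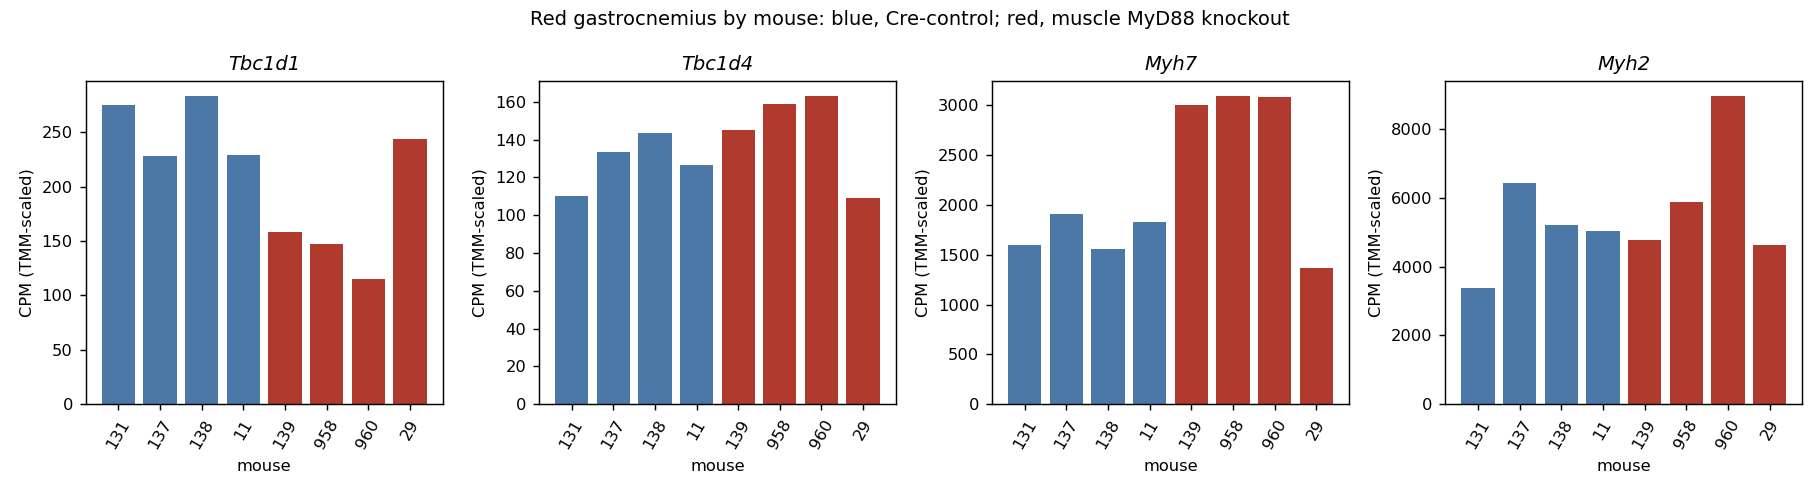
Levels of Tbc1d1, Tbc1d4 and the myosin genes Myh7 and Myh2 in each mouse's red gastrocnemius, as bars in TMM-scaled CPM from 0, blue for Cre-Control and red for knockout. Mice 139, 958 and 960 are at 115 to 158 CPM of Tbc1d1 and at 3004 to 3089 CPM of Myh7, and mouse 29 is at 244 and 1372 CPM.

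In fat, which the deletion does not target, 0 of 10 were called, against 0.00613% of 16323 genes, and 2 had an unadjusted p under 0.05 (edgeR), as had 7.99% of all genes. DESeq2 and limma voom also called 0. More values were positive than negative: 8 of 10 were positive, beside 47.9% of all genes, with a median log2 fold change of 0.24 beside -0.011 for all genes. Without mouse 138 the same number were positive, beside 51.6% of all genes, and the median was 0.073, beside 0.0087. They were not the same genes: Akt2 turned negative (-0.13) and Tbc1d1 went from negative to 0.0022. Pik3ca was at 0.0043. Irs1 was at 116, 104, 63.8 and 129.7 CPM among controls and 150.3, 174, 142 and 187 CPM among knockouts. All 4 knockouts lay above all 4 controls, as the groups failed to overlap for 6.43% of all genes and for 1 of these 10. The log2 fold change was 0.66 (SE 0.21, edgeR adjusted p = 0.588), and 0.50 without mouse 138 (adjusted p = 0.148). Pik3r1 was at 302, 287, 198 and 383 CPM among controls and 440.1, 366, 471 and 401 CPM among knockouts. Knockout mouse 958 lay below control mouse 11, so the groups overlap. Its log2 fold change was 0.53 (SE 0.20, edgeR adjusted p = 0.618), and 0.39 without mouse 138 (adjusted p = 0.212).

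Insr in fat was at 169, 196, 116 and 182 CPM among controls and 212, 192, 239 and 198 CPM among knockouts (log2 fold change 0.35, SE 0.17, edgeR adjusted p = 0.627), and the value was 0.22 without mouse 138. Other values moved by over 1.5 times without mouse 138, among them Irs2, 0.25 with it and 0.16 without it, Akt1, -0.19 and -0.13, Tbc1d1, -0.45 with it and 0.0022 without it, Tbc1d4, 0.35 and 0.067, Grb10, 0.23 and 0.079, and Akt2, 0.076 and -0.13. That library had the lowest level of the fat controls for 8 of these genes and the highest for Akt1 and Tbc1d1, beside its low adipocyte and high smooth muscle genes. Pik3ca held at 93.3 to 104 CPM among controls and 91.2 to 104 CPM among knockouts (log2 fold change 0.017, 95% interval -0.15 to 0.18). Irs2 was at 48.6 ± 9.72 and 57.6 ± 7.15 CPM and Akt1 at 53.2 ± 4.01 and 46.7 ± 3.78 CPM (SD, n = 4). The Pik3r1/Pik3ca ratio was 2.60 in controls and 3.78 in knockouts (log2 difference 0.54, exact permutation p = 0.0571, adjusted p = 0.137). Without control mouse 11 the difference was 0.68 (exact permutation p = 0.0286, adjusted p = 0.0686), and without mouse 138 it was 0.39 (p = 0.0857 in the exact permutation test). The Irs1/Irs2 ratio differed by 0.44 (exact permutation p = 0.171), Akt2/Akt1 by 0.34 (0.457) and Tbc1d1/Tbc1d4 by -0.83 (0.371). Without mouse 138 these 3 were 0.33, 0.0050 and -0.056.

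Whether the genotype difference itself differed between tissues was tested as an interaction, which called 0 of 10 genes and 0.0% of 17084 genes in edgeR. At an unadjusted p under 0.05 there were 3 of 10 and 1229 of all genes (7.19%), and DESeq2 called 11 of all genes and 0 of the 10. Those 3 were Irs1 (muscle minus fat -0.76, SE 0.29), Pik3r1 (-0.66, SE 0.28) and Akt1 (0.28, SE 0.11), with edgeR adjusted p of 0.653, 0.673 and 0.673. Without the fat library of mouse 138 they were -0.59, -0.52 and 0.22, and without both of its libraries -0.53, -0.37 and 0.21, where Irs1 alone of the 3 kept an unadjusted p under 0.05 (0.0408 in edgeR, adjusted p = 0.432). Of the 10 values 8 were negative, and 7 without mouse 138, beside 54.4% positive over all genes.

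Around this core, 72 other genes of the pathway were read from 6 lists by role. Genotype called 0 of 67 tested in muscle and 0 of 69 in fat, and the interaction 0 of 70, in edgeR, DESeq2 and limma voom. At an unadjusted p under 0.05 there were 3, 0 and 2, beside 5.04, 7.99 and 7.19% of all genes. The median log2 fold change was -0.011 in muscle and -0.0030 in fat. The smallest p in muscle was that of Foxo1, a transcription factor that AKT keeps out of the nucleus. It was at 41.6 ± 11.2 CPM among controls and 27.0 ± 3.11 CPM among knockouts (SD, n = 4; log2 fold change -0.63, SE 0.18, edgeR adjusted p = 0.907), and it was called with no filter on low counts (1.07e-05). The fit with no filter gave -0.62 with a SE of 0.10, and it called 80 of all genes in place of 2. The other 15 alternatives left Foxo1 uncalled. The 3 genes at an unadjusted p under 0.05 in muscle were Foxo1, Foxo3 and Inpp5d. Foxo3 was at 83.3 to 94.9 CPM among controls and 74.3 to 81.1 CPM among knockouts (log2 fold change -0.23, SE 0.074, edgeR adjusted p = 0.907). These groups did not overlap, as was so for 3.17% of all genes. Inpp5d, the phosphatase SHIP1 of blood cells, was at 6.33 ± 1.13 CPM among controls and 7.96 ± 0.49 CPM among knockouts. In fat the receptor phosphatase gene Ptprf had a log2 fold change of -1.29 with mouse 138 and -0.22 without it, and Foxo3 of -0.27 and -0.14.

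Between tissues, 61 of the 70 pathway genes were called, 31 higher in muscle and 30 higher in fat, where 79.6% of all genes were called, 35.7% higher in muscle and 44.0% higher in fat. The counts of each list below are read against these shares. The pathway genes had a median of -0.017, beside -0.16 for all genes. In the receptor and adaptor list, 4 were higher in muscle and 3 in fat. Irs3, an adaptor of rodent fat cells, was at 0.599 ± 0.185 CPM in muscle compared with 27.1 ± 9.77 CPM in fat (SD, n = 8), 43.3-fold higher in fat (log2 fold change, muscle over fat, -5.44, SE 0.34, edgeR adjusted p = 7.68e-10). Shc1, an adaptor of the receptor, was 2.61-fold higher in fat. Of the other PI3-kinase genes, 2 were higher in muscle and 6 in fat: Pik3c2a was 1.58-fold and Pik3cg 3.8-fold higher in fat, and Pik3cd, a catalytic chain best known from leukocytes, was 2.03-fold higher in muscle.

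Among 7 genes for AKT activation, 4 were higher in muscle and 1 in fat. Prr5, a subunit of the kinase complex mTORC2, was 6.87-fold higher in fat, while its partners Mapkap1 and Mlst8 were 1.44-fold and 1.24-fold higher in muscle. Of 17 genes listed as brakes, 6 were higher in muscle and 9 in fat. The list also holds the adaptor genes Sh2b1, higher in muscle, and Sh2b2, higher in fat, so these are not counts of inhibitors alone. The lipid phosphatase gene Inppl1 (SHIP2) was 2.25-fold and the PI3-kinase inhibitor Pik3ip1 5.10-fold higher in muscle, and the AKT phosphatase gene Phlpp2 2.48-fold higher in fat. Of 12 genes for GLUT4 traffic, 4 were higher in muscle and 5 in fat. Rab10 was at 359.7 ± 21.3 CPM in muscle compared with 112 ± 5.90 CPM in fat, 3.37-fold higher in muscle (edgeR adjusted p = 4.91e-13), while Rab8a, a related Rab, was 2.22-fold and the vesicle motor gene Myo1c 4.10-fold higher in fat. Of 18 outputs, 11 were higher in muscle and 6 in fat. Akt1s1 (PRAS40) was 3.38-fold, Tsc1 2.99-fold and Foxo4 4.99-fold higher in muscle. With total counts alone, Pik3cd, Mapkap1, Mlst8 and Inppl1 have values below 0.

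**Figure D5:**
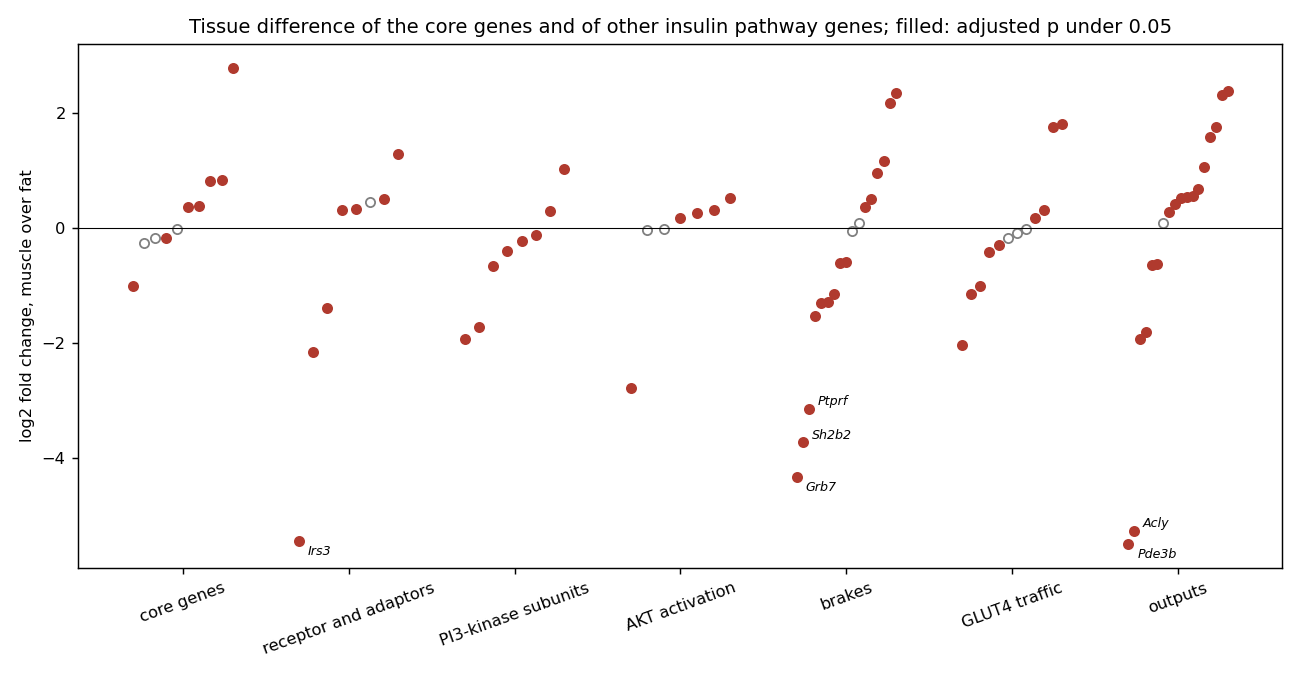
Log2 fold change of muscle over fat for the 10 core genes and for the 70 tested pathway genes by role, ordered within each role, with filled points where the adjusted p was under 0.05 and names where the value is beyond 3 in size. The core genes lie between -1.0 and 2.79, and points of either sign are filled in each role.

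The patterns most like those of Insr, Irs1, Irs2 and Grb10 over the 16 libraries were found by the root mean square difference of centred log2(CPM + 0.5), among 17083 other genes. For Insr they were Erlec1, an endoplasmic reticulum lectin gene (0.085), and Lnpep (0.086), which encodes the aminopeptidase of GLUT4 vesicles. The median over all genes was 0.51. Irs2 was nearest to Ece1 (0.12) and Zfp318 (0.13), and Grb10 to D2hgdh (0.11) and E130311K13Rik (0.14). Irs1 had no pattern as near, with Hoxc4 at 0.19 and Nr3c1, the glucocorticoid receptor gene, at 0.21. Genes with a small difference between tissues lie near each other by this measure.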

How the data were processed

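The authors deposited raw counts of reads per Ensembl gene, 1 column for each of 16 libraries. Per the labels' protocols, rRNA-depleted total RNA was made into stranded libraries. Per the submitters' processing notes, the tools were STAR 2.7.0f, featureCounts 1.6.3 and DESeq2 1.22.2, with the build GRCm38. Not given in the sources used here are the annotation release, the treatment of multiply mapped reads and the strand setting, so reads of overlapping antisense genes may be included. All 55536 identifiers matched GENCODE M21, which gave coordinates and lengths.

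The test was edgeR 4.0.16's quasi-likelihood fit to the counts (R 4.3.3; filterByExpr, TMM, robust), by tissue for genotype and over all 16 libraries for tissue and interaction. P values were adjusted by Benjamini-Hochberg over all tested genes and called under 0.05. The SE equals the size of the log2 fold change over the root of F. The 95% intervals are normal ones from this SE, not adjusted for the number of genes. They are narrower than the F test with few mice would give, and can exclude 0 where its p is above 0.05. For Insr in fat the interval was 0.019 to 0.674 with an unadjusted edgeR p of 0.0703. CPM levels use TMM factors (0.633 to 0.702 in muscle, 1.30 to 1.85 in fat) computed before the filter, so fitted tissue values differ from ratios of CPM by a small constant. RPKM is that CPM per kilobase of merged exons. Ratios used a pseudocount of 0.5 counts.

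Of the pathway lists, up to 3 called genes per list with the smallest p were named, or the 1 with the smallest p where 0 were called; those of the interaction, and some of genotype, are left out as uncalled, and 1 called gene is not reported here. Named in addition were Pik3cb, beside Pik3ca, and Foxo3 for its genotype value in muscle. Likeness was sought for Insr, Irs1, Irs2 and Grb10. Genes, lists and tests were chosen with earlier results of these data known. Knockout mouse 29 and control mouse 138 were singled out after their values were seen. The mouse number in the subject labels pairs the tissues; deviations from group means correlated at -0.02 to 0.20 within mice over 17084 genes. No pair of replicate libraries agreed within counting noise. Nothing states separate cages or litters. The p values of genotype within a tissue measure the spread between these mice. In the main tests of tissue, the interaction and ratios between tissues, the muscle and fat libraries of a mouse were treated as independent. Those p values measure the spread between libraries, and only the replicate block and the sign flips within mouse use the pairing. The procedure was tested on simulated data. Alternatives were other scalings, filters, DESeq2 1.42.0, limma 3.58.1 voom, 1 fit of all libraries, the replicate block and leaving out libraries.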

Additional observations from a re-analysis of the deposited data

Results flagged for a closer look

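In 56 groups of 4 libraries (40 of levels and 16 of ratios), 3 held a library far from the other 3 by Dixon's ratio of gap to range, and chance alone marks about 1 group in 20. The Tbc1d1 level in the fat of control mouse 138 was 64.5 CPM, against 23.0 to 29.5 CPM in the other fat controls. The log2 Tbc1d1/Tbc1d4 ratio of that library was 1.475, against -1.801 to -1.361. The same library held the low adipocyte and high smooth muscle levels given above. The Pik3ca level in the muscle of control mouse 131 was 179.1 CPM, against 163.1 to 165.3 CPM.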

How the results depend on the processing

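Of the 10 genes, the count called for genotype was 0 in fat and for the interaction in every alternative run, and in muscle 0 to 1, being 1 without knockout mouse 29. Over all genes in muscle, 2 were called, 80 with no filter on low counts (with 1 pathway gene, Foxo1), 1 with at least 1 CPM in 4 libraries, 10 with DESeq2 and 1 to 10 when leaving out a library. In fat 1 was called, 72 with DESeq2, 0 with voom, 6 in 1 fit of all 16 libraries and 0 to 6 when leaving out a library. For the interaction the counts were 0, 11 with DESeq2, 0 to 0 when leaving out a mouse and 3 without the fat of mouse 138. For tissue, 5 to 9 of the 10 genes were called when leaving out a mouse or library. With the replicate block, tissue called 13436 genes, 7 of the 10 and 60 pathway genes, in place of 61, and it changed no call of the 10 genes. The causes of these changes were not tested.

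Uncalled values near 0 changed sign. With total counts, genotype in muscle gave Insr 0.048, Irs2 0.052 and Pik3ca 0.033 and in fat Pik3ca -0.030, and the interaction gave Pik3ca 0.062 and Tbc1d1 0.035. With total counts the tissue values were -0.82 for Irs1, -0.39 for Pik3ca, -0.79 for Akt2, -0.33 for Tbc1d4, -0.19 for Pik3cd, -0.67 for Mapkap1, -0.89 for Mlst8 and -0.023 for Inppl1, where the median of all genes was -1.36. Insr between tissues was 0.0038 with RLE scaling and 0.0039 with DESeq2, and -1.21 with total counts, where it was called (adjusted p = 7.17e-10), as were Irs2 (-1.37) and Grb10 (-1.44). The Akt2 interaction was -0.045 with voom and -0.040 with the replicate block. When leaving out 1 mouse or library, genotype in muscle ranged from -0.095 to 0.038 for Insr, -0.27 to 0.0061 for Irs1, -0.078 to 0.056 for Irs2, -0.28 to 0.0031 for Pik3r1, -0.12 to 0.012 for Pik3ca and -0.020 to 0.20 for Grb10. In fat it ranged from -0.012 to 0.057 for Pik3ca, -0.13 to 0.22 for Akt2 and -0.63 to 0.0022 for Tbc1d1. Between tissues Insr ranged from -0.091 to 0.053. The interaction ranged from -0.13 to 0.028 for Pik3ca, -0.12 to 0.28 for Akt2, -0.39 to 0.16 for Tbc1d4 and -0.071 to 2.38 for Enpp1, and without the fat of mouse 138 the last 2 were 0.10 and -0.098. Log2 ratios in muscle ranged from -0.045 to 0.070 for Akt2/Akt1 (-0.029 without mice 131 and 11), -0.26 to 0.068 for Pik3r1/Pik3ca, -0.22 to 0.063 for Irs1/Irs2 and -1.15 to -0.59 for Tbc1d1/Tbc1d4, and in fat from 0.39 to 0.68 for Pik3r1/Pik3ca. The settings without control mice 131 and 11, and ratios without the fat of mouse 138, were chosen after seeing the data. Each library held at least 397 counts of each of the 10 genes, so depth did not limit detection.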
